A study of Mus musculus with 16 samples.

Results

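H3K27ac ChIP-seq peaks of cultured mouse satellite cells were compared between 2 libraries from cells labelled as LncMyoD knockdown and 2 from control cells. The peak lists of these 4 libraries, out of 8 ChIP libraries in a series of 16 samples, were taken whole on chromosomes 1 to 19 and X. They hold 193147 peaks, and overlapping or touching peaks were joined into 59960 regions. The other ChIP libraries of the series are of the transcription factor MyoD, and the 8 input libraries were not analysed here. The knockdown group (KD 1 and KD 2) and the control group (Ctrl 1 and Ctrl 2) both consist of hindlimb satellite cells of C57BL/6 mice grown in F10 medium with horse serum. The treatment text of the labels gives an siRNA against LncMyoD for 48 h, and it is the same for all libraries, so the control group is known only from titles and the genotype label. No RNA was measured in these libraries, and the depletion of LncMyoD was not checked. The labels name neither the animals nor the cultures behind a library, so p-values measure only the spread between these libraries, which may be technical.

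H3K27ac is the acetylation of a lysine in the tail of histone H3, and it marks active promoters and enhancers. Satellite cells are the stem cells of skeletal muscle. They are held by Pax7 and Notch signalling and, once activated, proliferate as myoblasts and differentiate under Myod1 and Myog into fusing myotubes. LncMyoD is a long noncoding RNA encoded next to Myod1 and is known from work on myoblast differentiation.

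The sequences shown first are those of promoters that lie in the regions described further on, from 250 bases before to 50 bases after the gene start (RefSeq, GRCm38.p6, the assembly that mm10 represents). Myog, Cav3 and Mybpc1 are genes of muscle differentiation, and in their promoters capitals mark the E-box letters CANNTG, which bHLH factors such as MyoD can bind. The letters CANNTG read the same on both strands, and 69.0% of all 21045 protein-coding promoters of this length hold them at least once.
Myog, chr1:134289754-134290053, plus strand: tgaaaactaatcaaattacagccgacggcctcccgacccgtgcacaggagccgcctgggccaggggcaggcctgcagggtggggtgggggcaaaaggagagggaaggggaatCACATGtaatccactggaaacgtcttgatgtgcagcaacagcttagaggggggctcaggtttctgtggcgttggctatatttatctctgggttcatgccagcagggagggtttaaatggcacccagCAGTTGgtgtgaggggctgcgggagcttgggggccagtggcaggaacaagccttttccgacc
Cav3, chr6:112459255-112459554, plus strand: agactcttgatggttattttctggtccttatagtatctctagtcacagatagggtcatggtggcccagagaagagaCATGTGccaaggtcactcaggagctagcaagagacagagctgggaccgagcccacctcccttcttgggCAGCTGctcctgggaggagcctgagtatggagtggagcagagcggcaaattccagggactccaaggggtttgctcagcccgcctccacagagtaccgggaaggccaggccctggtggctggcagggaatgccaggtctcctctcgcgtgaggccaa
Mybpc1, chr10:88605103-88605402, minus strand: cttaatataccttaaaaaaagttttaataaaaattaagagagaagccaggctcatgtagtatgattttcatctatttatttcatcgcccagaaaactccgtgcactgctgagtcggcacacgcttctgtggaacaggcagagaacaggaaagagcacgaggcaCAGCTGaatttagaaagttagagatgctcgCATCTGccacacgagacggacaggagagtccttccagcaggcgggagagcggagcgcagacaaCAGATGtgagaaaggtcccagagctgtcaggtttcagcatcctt
The promoters of Cdk1, a cell-cycle kinase, and Ppib, a chaperone of the secretory pathway, lie in regions that ranked lower in the knockdown libraries. Capitals mark CCAAT on either strand, a motif found in 38.5% of all promoters.
Cdk1, chr10:69352863-69353162, minus strand: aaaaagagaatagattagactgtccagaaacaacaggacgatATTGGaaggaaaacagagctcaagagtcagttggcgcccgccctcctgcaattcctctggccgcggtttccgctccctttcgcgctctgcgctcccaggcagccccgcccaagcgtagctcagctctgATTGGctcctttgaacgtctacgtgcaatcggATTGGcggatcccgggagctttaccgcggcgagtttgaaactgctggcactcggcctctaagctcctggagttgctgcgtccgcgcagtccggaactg
Ppib, chr9:66059919-66060218, plus strand: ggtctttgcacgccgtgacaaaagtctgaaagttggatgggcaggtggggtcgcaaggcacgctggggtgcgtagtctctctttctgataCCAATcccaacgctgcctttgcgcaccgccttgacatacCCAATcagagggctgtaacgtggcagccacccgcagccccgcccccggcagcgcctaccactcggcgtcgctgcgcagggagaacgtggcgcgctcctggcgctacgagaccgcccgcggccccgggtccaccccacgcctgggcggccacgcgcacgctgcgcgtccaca
The Mybpc1 promoter held 3 E-boxes, and those of Myog and Cav3 held 2 each. CCAAT was found 3 times in the Cdk1 promoter and 2 times in the Ppib promoter. A match in this window is a description of the letters, not of a bound site.

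The 4 lists differed in length, and KD 2 stood apart. KD 1 held 54008 peaks over 57.5 Mb and KD 2 held 39934 peaks over 37.6 Mb, against 46207 peaks over 47.2 Mb in Ctrl 1 and 52998 peaks over 53.3 Mb in Ctrl 2. KD 2 thus covered 65.3% of the length that KD 1 covered, and the control libraries lay between them. The mean number of peaks was 46971 ± 9952 in the knockdown and 49602.5 ± 4802 in the control (SD, n = 2 each; two-sided exact permutation test, p = 1). The median peak was 639 and 575 bp wide in the KD libraries, against 626 and 562 bp in the control libraries (exact p = 0.667). With 2 libraries a group this exact test cannot give a p below 0.333. Read depth is unknown, since the lists hold no read counts, and its part in the length of a list was not tested.

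Around gene starts the mark peaked at the same position in every library. The share of starts covered was highest 200 bp downstream of the start, at 46.6% of starts in KD 1 and 37.9% in KD 2, against 44.4% in Ctrl 1 and 42.5% in Ctrl 2. Coverage 5 kb before the start had dropped to 3.93% and 2.56% in the KD libraries, and to 3.38% and 3.64% in the control libraries. The groups overlapped at each of these positions, with the control libraries inside the range of the KD libraries. A promoter window overlapped a peak for 46.6% and 35.7% of promoters in the KD libraries, against 43.5% and 41.9% in the control libraries (exact p = 1).

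**Figure D1:**
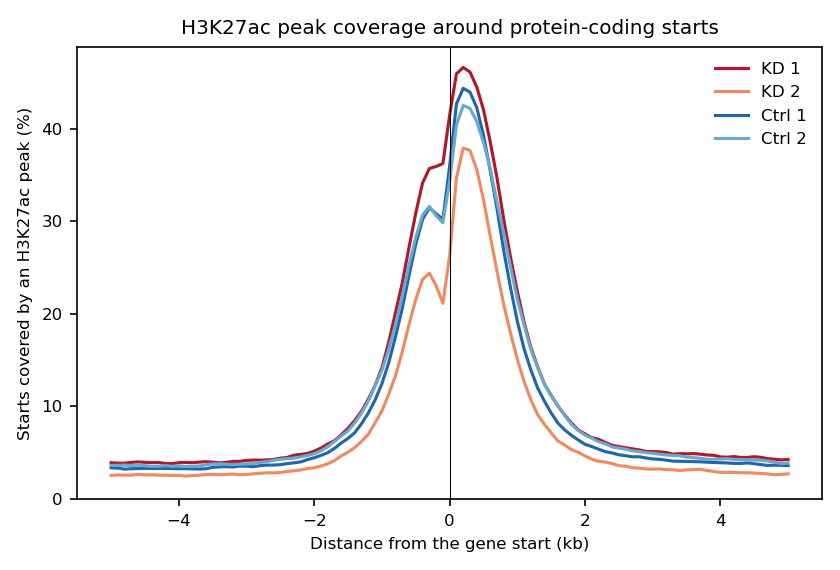
Share of 21045 protein-coding gene starts (y axis, percent) covered by an H3K27ac peak at each distance from the start (x axis, kb), 1 line a library. All 4 lines peak 200 bp downstream of the start, at 46.6% (KD 1), 37.9% (KD 2), 44.4% (Ctrl 1) and 42.5% (Ctrl 2).

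Promoters with the mark differed in sequence from those without it. The 7245 promoters with a peak in all 4 libraries had a median GC content of 62.3% and a median of 23 CpG in 300 bases. The 10987 promoters with no peak had 50.7% GC and 5 CpG. TATAAA was present in 5.78% of the promoters marked in all libraries and in 18.8% of those marked in none, and the E-box in 58.8% and 76.6%. Group-specific promoters were few, with 27 (0.128% of all 21045) marked in both KD libraries only and 46 (0.219%) in both control libraries only. Of all H3K27ac regions, 0.769% were called in both KD libraries only and 1.46% in both control libraries only. The KD-only promoters included Klf2, a Krüppel-like transcription factor, Slc2a1, the glucose transporter GLUT1, and Dnmt3a, a DNA methyltransferase. The control-only promoters included Actc1, the cardiac alpha-actin of immature muscle, Unc45b, a myosin chaperone, and Dll1, a Notch ligand. These 6 genes were picked from the 73 after their names were seen.

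The label of the cells was checked against muscle stem cell markers. Regions in all 4 libraries lay at Pax7, Myf5, Myod1, Des, Cdh15, Itga7 and Megf10, and each of these genes had at least 1 of them within 1 kb of a gene end. Pax7, the paired-box factor of satellite cells, lay under a domain of 17328 bp over its start that covered 16778 and 14786 bp in the KD libraries, against 17074 and 16329 bp in the control libraries. Cdh15, the muscle cadherin, carried a region at ranks 98.4 and 99.7 in the KD libraries, against 98.5 and 97.8 in the control libraries. Of the markers of other cells, no base was covered in any library at Ptprc, Adgre1, Tyrobp and C1qa (immune, 6 of 12 markers at 0), Kdr, Flt1 and Cldn5 (endothelial, 6 of 12), Pdgfra and Dcn (fibro-adipogenic, 5 of 12), Sox10 and Ngfr (Schwann, 5 of 12) or Myh11 and Cnn1 (smooth muscle, 3 of 12). Other markers of these lists did have regions in all 4 libraries. They were 3 immune, 7 endothelial, 6 fibro-adipogenic, 6 Schwann and 8 smooth muscle genes, among them Ly6a, Cd55, Mbp, Erbb3 and Rgs5. Over the markers with a mean of at least 1000 covered bases, the immune list summed to 10326 and 5932 bp in the KD libraries, against 9521 and 9200 bp in the control libraries, with the lowest sum in KD 2. For the endothelial list the sums were 26983 and 17796 bp in KD, against 21840 and 21853 bp in Ctrl. The fibro-adipogenic list gave 33324 and 23009 bp in KD, against 29005 and 30784 bp in Ctrl. The smooth muscle list gave 42305 and 26069 bp in KD, against 35389 and 35251 bp in Ctrl, and the Schwann list 17332 and 11702 bp in KD, against 16896 and 16804 bp in Ctrl. The smooth muscle list includes Des, also a muscle stem cell marker above, and Notch3, also in the satellite cell list. Its sum is thus not of other cells alone. In bp KD 1 was highest and KD 2 lowest for all 5 lists, which is also the order of the total covered lengths. As ppm of all bases a library covered, the endothelial list had 469 and 474 in KD, against 462 and 410 in Ctrl, with both KD libraries higher. The Schwann list had 301 and 312 ppm in KD, against 358 and 315 ppm in Ctrl, with both KD libraries lower. The groups overlapped in ppm for the fibro-adipogenic, smooth muscle and immune lists, and the part of such cells in the results was not tested.

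Most of the strong landscape was shared. Of the 59960 regions, 26113 (43.6%) were called in all 4 libraries. Regions were divided by the percentile rank of their strongest peak, by fold enrichment, among all peaks of a list. Quintiles here are equal steps of that percentile scale and do not hold equal numbers of regions. In the strongest quintile of each list, 99.98% to 100% of regions were shared by all 4 libraries. In the weakest quintile the share was 3.75% in KD 1 and 64.3% in KD 2, against 16.7% in Ctrl 1 and 8.06% in Ctrl 2. The shared regions were long, with a median of 1676 bp, and 34.5% of them lay within 1 kb of a gene end. MyoD peaks of both control libraries overlapped 33.4% of them.

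Regions called in 1 group only were rare and short. There were 461 knockdown-only regions (0.769% of all regions) and 873 control-only regions (1.46%), with median lengths of 440 and 417 bp. Gene ends lay within 1 kb of 7.81% of the knockdown-only and 9.16% of the control-only regions, and MyoD peaks of both control libraries overlapped 7.38% and 8.13%. Many regions followed a single library: 9501 regions were called in KD 1 only, 551 in KD 2 only, 2607 in Ctrl 1 only and 7278 in Ctrl 2 only, while 5092 were missing in KD 2 alone. When each list was shortened to the same number of peaks, the counts were 712 knockdown-only and 755 control-only, a smaller difference between the groups. Without KD 2 there were 10104 knockdown-only and 969 control-only regions, and without KD 1 there were 1372 and 6599. Without Ctrl 1 the counts were 955 and 8654, and without Ctrl 2 they were 1554 and 3897.

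**Figure D2:**
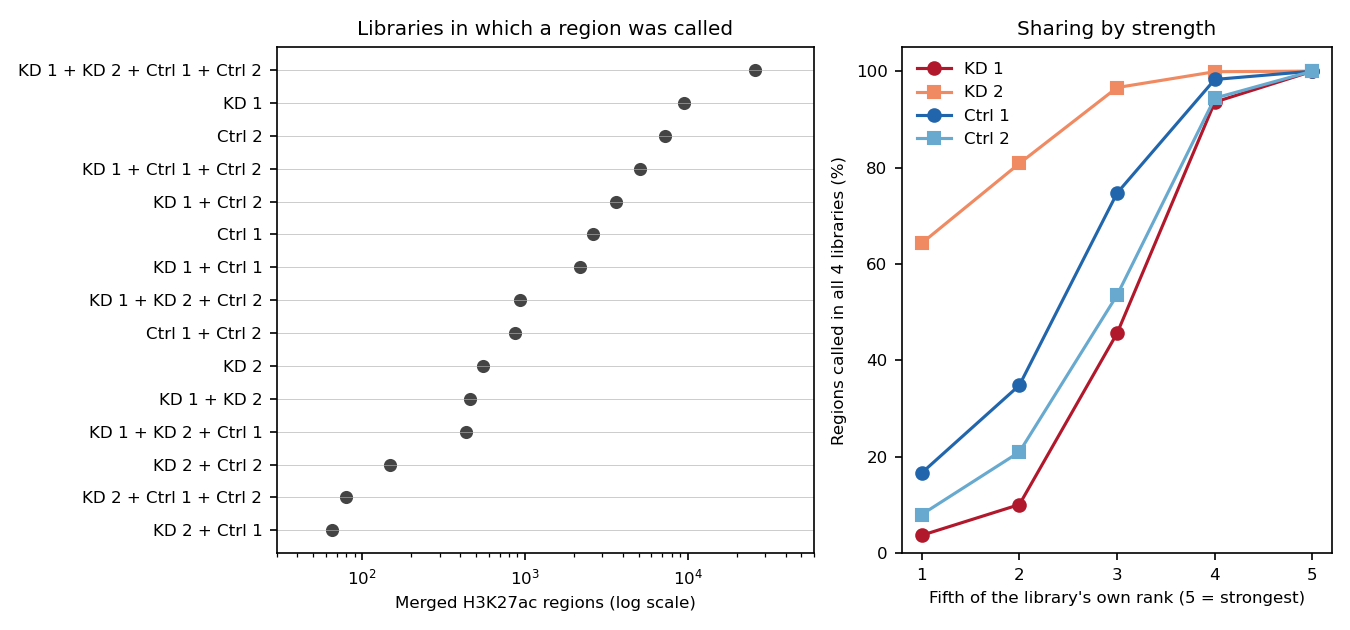
Left, number of merged H3K27ac regions (x axis, log scale) for each combination of libraries in which they were called (rows). Right, percent of a library's regions called in all 4 libraries (y axis) by quintile of its own fold enrichment rank (x axis, 5 strongest). Quintiles are equal steps of the percentile scale. The 26113 fully shared regions are the largest class, and sharing reaches 99.98% to 100% in the strongest quintile of each library.

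Few genes collected several group-specific regions: 22 genes had 2 or more knockdown-only regions and 68 had 2 or more control-only regions. Beside these, 10862 genes had a region of all 4 libraries. Of all regions, 0.769% were knockdown-only and 1.46% control-only. The genes below were named for their counts. With 2 knockdown-only regions each, Fat1, an atypical cadherin, Lrig1, a negative regulator of receptor tyrosine kinases, and Myof, the myoferlin of myoblast fusion, had 9, 33 and 21 regions in all. The control-only side was led by Msi2, an RNA-binding protein, and Nfia, a nuclear factor, each with 5 such regions of 88 and 84. Igf1r, the receptor of insulin-like growth factor, and Pax7 had 3 each, of 40 and 46 regions. At these 4 control-only genes more regions were shared by all 4 libraries than were group-specific, with 25, 22, 13 and 14 shared at Msi2, Nfia, Igf1r and Pax7.

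None of the highest and widest regions was called by limma. Each region of all 4 libraries was given the percentile rank of its fold enrichment over background, as given by the authors' peak caller, among these 26113 regions, so that every library ranked the same list. Of the top 5 by mean rank, 4 are given here, at Zfp568 (a zinc-finger gene), Wdr81, Zc3h4 and Map7d1. All their ranks were at least 99.86, which follows from the choice by mean rank over all libraries. The widest region, 42591 bp in the Hoxc cluster and assigned to Hoxc10, covered 42419 and 38209 bp in the KD libraries, against 41460 and 41739 bp in the control libraries. Myh9, the non-muscle myosin heavy chain, had 38258 and 34665 bp in KD, against 38702 and 38450 bp in Ctrl. Others of the 10 widest lay at Nfix, a nuclear factor of fetal muscle, and Pmepa1, a TGF-beta feedback gene. Tns3, Lasp1, Hspg2 (perlecan), Pde4b and Jph2 (junctophilin) were also among them. The remaining one was chr15:85652283-85682715, with no body of a protein-coding or listed gene within 50 kb. MicroRNA genes were not counted for this distance. In all 10, KD 2 had the fewest covered bases, and their log2 width differences, centred on each library's median, lay between 0.05 and 0.13 with no call. By rank, Pde4b had 86.5 and 87.6 in KD, against 92.6 and 93.4 in Ctrl, with both KD libraries lower. At Myh9 and the chr15 region both KD ranks were also lower, by smaller margins.

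Several of the wide regions hold microRNA genes. Of 1005 RefSeq hairpins on these chromosomes, 124 lay within regions of all 4 libraries, in 116 regions with a median length of 2544 bp. The mature microRNAs of 6 such regions, picked after their widths were seen, are shown because 2 pairs share a seed; capitals mark the seed, bases 2 to 8 (RefSeq, GRCm38.p6).
miR-206-3p: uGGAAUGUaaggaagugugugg
miR-22-3p: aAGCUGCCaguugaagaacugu
miR-21a-5p: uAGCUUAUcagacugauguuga
let-7b-5p: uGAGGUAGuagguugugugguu
let-7c-5p: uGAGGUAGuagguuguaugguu
miR-196a-5p: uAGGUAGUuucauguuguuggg
miR-196b-5p: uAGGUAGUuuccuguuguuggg
The muscle-specific Mir206 (chr1:20679010-20679082) lay in a region of 15041 bp at ranks 95.9 and 97.8 in the KD libraries, against 97.2 and 98.4 in the control libraries. Mir22 lay in the region next to Wdr81 named above, with ranks of 99.92 and 99.998 in KD, against 99.95 and 99.98 in Ctrl. Mir21a had ranks of 98.1 and 98.5 in KD, against 98.8 and 96.8 in Ctrl. These 3 regions were among the strongest of every library, and their groups overlapped. Mirlet7b and Mirlet7c-2, whose products share the seed GAGGUAG, lie in the same region of 12943 bp. That region had ranks of 60.0 and 48.4 in KD, against 69.6 and 68.0 in Ctrl, so both KD libraries were below both control libraries by less than the 20 points used for a shift below. Mir196a-2, in the Hoxc region, and Mir196b, in a Hoxa region of 19819 bp, share the seed AGGUAGU. Mir196b had ranks of 81.9 and 92.8 in KD, against 85.3 and 86.7 in Ctrl. Of the 116 regions, 2 ranked lower by a shift (holding Mir1968 and Mir34b) and 3 ranked higher (Mir3962, Mir8113 and Mir5625), counts near the 2.62% lower and 2.58% higher of all shared regions.

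The order of the shared regions was alike in all libraries. Spearman's correlation of the ranks over the 26113 regions was 0.883 within the knockdown pair and 0.880 within the control pair, and 0.858 to 0.915 between the groups, highest between KD 1 and Ctrl 1. These are descriptions over regions, which are not independent, of libraries that share most strong regions. limma (moderated test with trend and robust settings, Benjamini-Hochberg over all 26113 regions) called 0 regions at an adjusted p below 0.05, with a smallest adjusted p of 0.980. At an unadjusted p below 0.05 there were 531 regions lower and 530 higher in the knockdown libraries.

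Shifts were therefore described without a test, as regions in which both KD ranks lay on 1 side of both control ranks and the means differed by at least 20 percentile points. Both KD ranks lay below both control ranks in 15.9% of regions and above them in 16.4%. By the full rule 683 regions (2.62%) ranked lower and 673 (2.58%) ranked higher in the knockdown libraries. Quintiles of mean rank were steps of 20 points and held 4757 to 5926 regions. Shifts were most frequent in the second and middle quintiles. Of the second quintile 5.65% ranked lower and 5.26% higher, against 0.0813% and 0.0610% of the strongest quintile. A rank has an upper and a lower limit, so regions near either end have little or no room for a difference of 20 points. The low shares at the ends thus follow in part from the rule. Across chromosomes, 1.84% (chromosome 19) to 3.25% (chromosome 2) of regions ranked lower and 1.86% (chromosome 4) to 3.34% (chromosome 12) higher. With ranks taken over all peaks of each list, whose lengths differ, the split was 707 lower and 383 higher. With 1 library left out, the counts were 1209 lower and 1151 higher without KD 2, 1910 and 1778 without KD 1, 1679 and 1604 without Ctrl 1, and 1162 and 1330 without Ctrl 2.

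**Figure D3:**
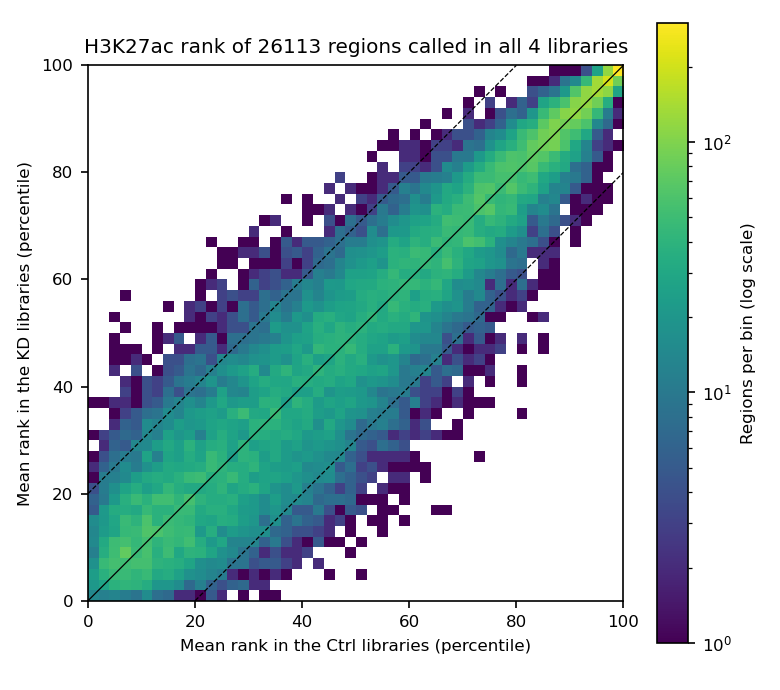
Mean rank in the 2 KD libraries (y axis, percentile) against mean rank in the 2 Ctrl libraries (x axis, percentile) for the 26113 regions of all 4 libraries, in bins of 2 by 2 points coloured by number of regions (log scale). The solid line marks equal rank and the dashed lines a difference of 20 points; most regions lie between the dashed lines and the spread narrows to the upper right.

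The regions ranked lower and those ranked higher differed in their overlap with MyoD peaks of the control libraries. Controls are the group in which regions ranked lower are high by choice. The matching shares with MyoD peaks of the KD libraries are not given here. MyoD peaks of both control libraries overlapped 43.2% of the 683 regions ranked lower and 22.3% of the 673 ranked higher, beside 33.4% of all shared regions. The overlap rose with mean rank, from 18.3% of the weakest quintile to 55.8% of the strongest. Most shifted regions lay in the second and middle quintiles, whose shares of 25.3% and 31.5% are closer baselines. The share of regions ranked lower was above both, and that of regions ranked higher below both. Without KD 2 the shares of regions ranked lower and higher were 39.7% and 19.03%, beside 30.5% of all. With ranks of the −log10 q-value they were 42.7% and 22.9%. Of the 8717 regions with MyoD, 295 (3.38%) ranked lower and 150 (1.72%) higher. Of the 17396 without it, 388 (2.23%) ranked lower and 523 (3.01%) higher. Over all regions with MyoD the groups overlapped, with a median rank of 63.4 and 65.2 in the KD libraries, against 63.4 and 66.1 in the control libraries (exact p = 0.667). Position also differed, with 21.1% of the regions ranked lower and 18.0% of those ranked higher near a gene end, beside 34.5% of all. The gene-end share also rose with mean rank, from 15.2% of the weakest quintile to 47.5% of the strongest. The 34.5% is thus not matched to the ranks of the shifted regions. These shares are descriptions over regions and were not tested.

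Of the 10 largest differences downwards with groups apart, 9 lay inside genes and 1 upstream of Itga8. Grik1, a kainate receptor subunit, held a region (chr16:87916492-87918435) at ranks 22.3 and 12.4 in KD, against 63.4 and 71.5 in Ctrl, with MyoD peaks in all 4 MyoD libraries. Cracr2a, a calcium sensor of store-operated calcium entry, had a region 4.14 kb inside its start at ranks 7.29 and 1.08 in KD, against 51.2 and 52.7 in Ctrl. At Grik1 both KD values lay under both control values (difference of means −50.1 ± 11.3 points, SE, limma adjusted p = 0.980). Ppib, which encodes the collagen chaperone cyclophilin B, was the 1 gene of these 10 with its region over a known gene start. It ranked at 23.5 and 29.0 in KD, against 73.7 and 72.4 in Ctrl, while its covered bases were 2819 and 2368 in KD, against 2596 and 2777 in Ctrl. The fold enrichments behind it were 5.81 and 5.23 in KD, against 10.4 and 11.0 in Ctrl. Lrrc1; Itga8, an integrin subunit; Sorcs2; Ank3, ankyrin G; and Cdip1 had differences of means between −45.1 and −39.4 points. Lrrc1 and Cdip1 were high in KD 1 as well (55.5 and 70.1), so their differences rested mostly on KD 2 (15.7 and 22.9). Without KD 2 the differences were −21.0 points at Lrrc1 and −13.2 at Cdip1. With ranks of the −log10 q-value, Ank3 stood at 28.7 and 43.1 in KD, against 50.8 and 65.5 in Ctrl, a difference of −22.3 points. Cdip1 stood at 69.5 and 51.4 in KD, against 81.4 and 90.04 in Ctrl, a difference of −25.2.

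Of the 10 largest differences upwards, the second was at Myog, the transcription factor of terminal myogenic differentiation. The region (chr1:134282826-134286400) ended 3.60 kb upstream of the gene start and ranked at 45.5 and 51.5 in KD, against 3.67 and 4.66 in Ctrl (difference of means 44.3 ± 11.1 points, SE, limma adjusted p = 0.980). The highest fold enrichments in it were 7.82 and 7.01 in KD, against 3.28 and 3.88 in Ctrl. Its covered bases overlapped between the groups, with 3320 and 3032 in KD, against 3166 and 3449 in Ctrl. KD 1 had 2 peaks in this stretch and KD 2 had 3, where each control library had a single peak. With ranks of the −log10 q-value, the region stood at 44.5 and 50.3 in KD, against 11.6 and 13.2 in Ctrl. Among peaks within 10% of the width of the strongest peak here, 14.2% of 2420 in KD 1 and 8.81% of 1850 in KD 2 had a lower fold, against none of 1052 in Ctrl 1 and none of 1018 in Ctrl 2. The control folds were thus the lowest for peaks of such width. The fold is taken over a background that the lists do not hold, and its part in this difference was not tested. No MyoD peak of any library overlapped this region.

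At the 2 other shared regions assigned to Myog the groups overlapped. The region over the Myog start, which holds the promoter printed above and MyoD peaks of all 4 MyoD libraries, ranked at 70.1 and 61.2 in KD, against 74.7 and 64.9 in Ctrl. The region 11.9 kb upstream ranked at 48.7 and 42.2 in KD, against 45.1 and 52.7 in Ctrl. A knockdown-only region of 449 bp lay 1.39 kb upstream of the start, with fold enrichments of 2.51 and 4.21. A stretch about 7 to 8 kb downstream of the start, not assigned to Myog, had peaks in all 4 libraries with highest folds of 4.37 and 3.25 in KD, against 4.83 and 5.03 in Ctrl. Both KD values were below both control values there, opposite to the upstream region.

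**Figure D4:**
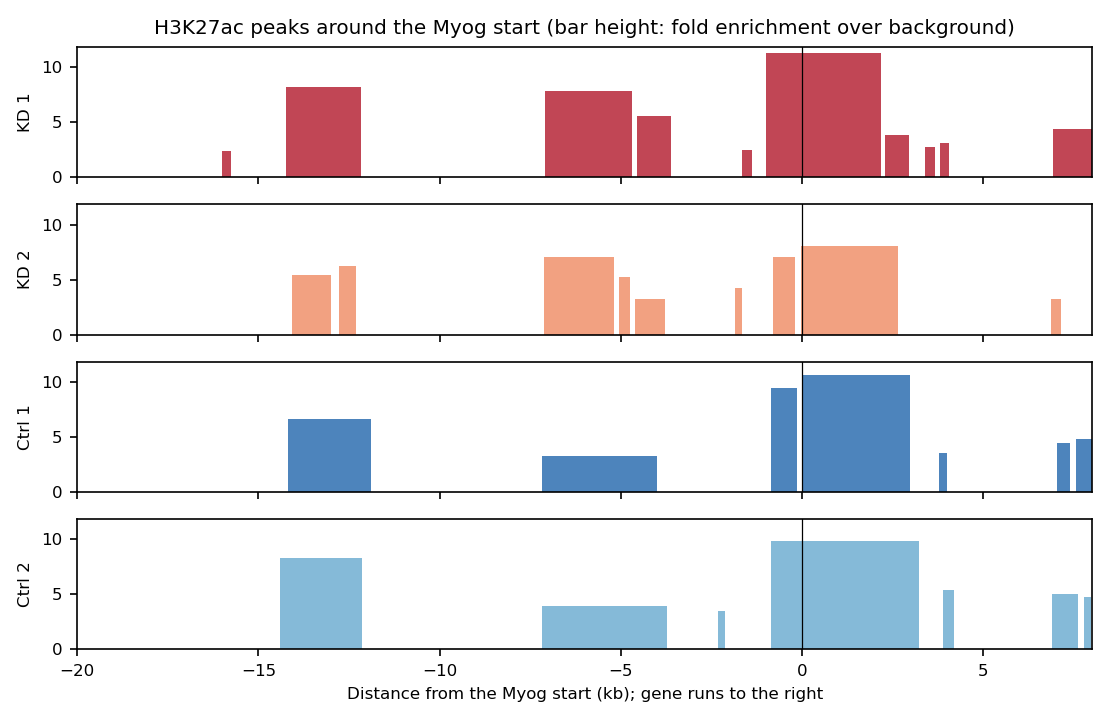
H3K27ac peaks of each library (rows) by distance from the Myog start (x axis, kb; the gene runs to the right), with bar height giving the fold enrichment of the peak over background. The block about 4 to 7 kb upstream reaches 7.82 and 7.01 in KD 1 and KD 2, against 3.28 and 3.88 in Ctrl 1 and Ctrl 2, while the block over the start has similar heights in all rows.

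The region with the largest difference upwards was at Cplx2. This gene encodes a complexin of synaptic vesicle release, and the region lay 21.4 kb upstream of its start at ranks 42.1 and 61.2 in KD, against 1.11 and 12.8 in Ctrl. Il2, a T-cell cytokine gene, was the nearest gene, 46.7 kb away, to a region at ranks 42.1 and 51.5 in KD, against 6.52 and 4.90 in Ctrl. Pola2, a subunit of DNA polymerase alpha, held a region at ranks 45.5 and 65.2 in KD, against 18.8 and 10.9 in Ctrl, and MyoD peaks lay in it in all 4 MyoD libraries. All 3 regions were wider in both KD libraries than in both control libraries (Pola2 2398 and 1992 bp in KD, against 1089 and 1388 bp in Ctrl). The remaining ones lay at Mchr1, Ank2, Epsti1, Syn2, the predicted gene Gm51579 and Agap1, with differences of 39.0 to 42.2 points. With ranks over all peaks of each list these were 21.8 at Agap1, 26.6 at Ank2 and 25.8 at Mchr1, and with a merge gap of 1000 bp the difference at Pola2 was 21.9 and that at Gm51579 was −1.86. Assignment to a gene is by distance and does not show that the region acts on it.

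**Figure D5:**
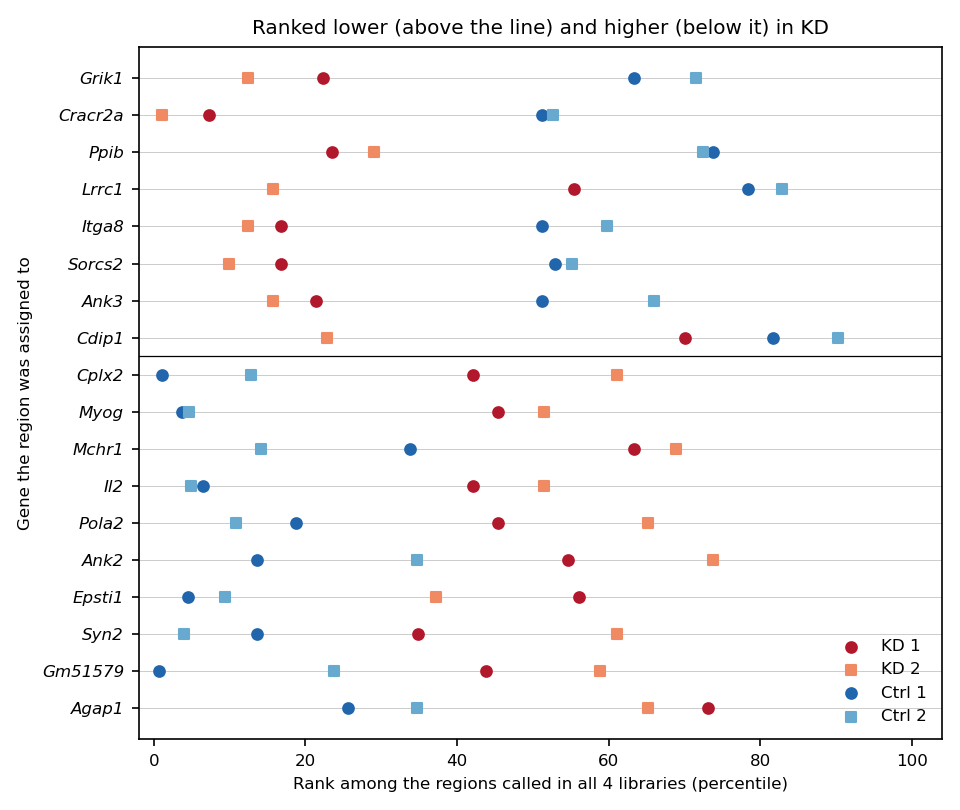
Rank among the 26113 shared regions (x axis, percentile) of 8 of the 10 regions with the largest downward (above the line) and the 10 with the largest upward (below it) differences whose groups do not overlap, 1 row each, with a point for each library. By the choice of these regions the KD points lie apart from the Ctrl points; at Lrrc1 and Cdip1 the KD 1 point lies nearer to the Ctrl points than to the KD 2 point.

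Genes were then described by list, beside all 23558 shared regions assigned to a gene, of which 603 (2.56%) ranked lower and 570 (2.42%) higher. Over all regions shared without KD 2, 1209 of 31335 ranked lower and 1151 higher, larger shares than with all libraries. List counts without KD 2 are to be read beside these. The cell cycle and replication list had 6 of 49 regions lower and 1 higher. Cdk1, the mitotic kinase, had its start region at 75.9 and 38.9 in KD, against 80.03 and 83.9 in Ctrl. Cdk2, a kinase of S-phase entry, had a region at 45.5 and 5.26 in KD, against 66.0 and 58.6 in Ctrl, and the others ranked lower lay at Ccne1, Aurkb, Ccna2 and the inhibitor Cdkn1a. Ranked higher was Plk1, a mitotic kinase, at 32.7 and 36.8 in KD, against 21.5 and 2.999 in Ctrl. For Cdk1 and Ccne1 the KD 1 value lay within 5 points of a control value and KD 2 was far below. Without KD 2 the list had 3 of 56 lower and 1 higher.

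The sarcomere list had 4 of 80 regions lower and 0 higher, and the list of fusion and neuromuscular junction genes 3 of 80 lower and 0 higher. These were 5% and 3.75% of their regions, beside the 2.56% lower of all assigned regions, and neither list was tested. Mybpc1, slow myosin-binding protein C, had its start region at 56.1 and 58.9 in KD, against 72.7 and 88.3 in Ctrl, with fold enrichments of 9.10 and 7.77 in KD, against 10.2 and 15.4 in Ctrl. Cav3, the muscle caveolin, had its start region at 32.7 and 5.34 in KD, against 46.1 and 52.7 in Ctrl. Myl4, an embryonic myosin light chain, had a region at 81.9 and 62.4 in KD, against 91.8 and 95.4 in Ctrl. Myh3, embryonic myosin heavy chain, had a region just upstream of its start at 40.3 and 1.32 in KD, against 52.9 and 58.6 in Ctrl. Tnnc1, a troponin, was at 5.83 and 38.9 in KD, against 39.0 and 51.4 in Ctrl, and Dysf and Bin1, membrane proteins of muscle fibres, made up the 3 with Cav3. MyoD peaks of all 4 MyoD libraries lay in each of these 7 regions. They also lay in regions of these lists without a shift, such as those over the starts of Des and Cdh15. The share of all regions of these lists with such peaks was not counted. Over all shared regions, 33.4% overlapped MyoD peaks of both control libraries. Without KD 2 the sarcomere list had 4 of 91 lower and 1 higher, and the fusion list 6 of 86 lower and 2 higher.

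Median ranks of the lists were set beside each other without a test. Over the 80 sarcomere regions it was 50.2 and 48.4 in KD, against 50.03 and 52.1 in Ctrl. Over the 49 cell cycle regions it was 60.5 and 60.0 in KD, against 66.0 and 64.0 in Ctrl, so both KD libraries lay below both control libraries. The same held for excitation-contraction coupling, with 48.7 and 48.4 in KD, against 51.2 and 54.5 in Ctrl. Both KD libraries were also lower over the 11 regions of the Schwann list, with 51.8 and 46.9, against 54.5 and 61.9 in Ctrl. The opposite held for the AP-1 list, with 68.1 and 58.9 in KD, against 56.9 and 58.7 in Ctrl, and for fibro-adipogenic markers, with 50.2 and 42.2 in KD, against 42.1 and 38.3 in Ctrl. Groups that lay apart were thus not particular to the cell cycle list. The median difference per region was −4.43 points for the cell cycle list, −2.66 for fusion and −0.87 for sarcomere genes, beside 0.17 for all genes.

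Among satellite cell genes, 6 of 133 regions ranked lower and 2 higher. Notch1, the receptor that keeps satellite cells quiescent, had a region 27.7 kb upstream at 31.6 and 37.5 in KD, against 63.4 and 76.6 in Ctrl, and MyoD peaks of all 4 MyoD libraries lay in it. Rbpj, the DNA-binding effector of Notch, had a region at 23.4 and 48.4 in KD, against 54.5 and 57.6 in Ctrl. Hes1, a target gene of Notch, had a region 1.80 kb away at 71.2 and 58.9 in KD, against 40.2 and 38.3 in Ctrl. The Notch genes thus lay on both sides. A region inside Pax7 had ranks of 75.9 and 44.1 in KD, against 80.8 and 80.9 in Ctrl, while the domain over its start had 79.2 and 87.6 in KD, against 86.6 and 82.9 in Ctrl. The others were Fgfr1, Fgfr4 and Chrdl2, ranked lower, and Megf10, ranked higher. Without KD 2 the list had 8 of 167 lower and 3 higher.

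Myogenic regulators had 4 of 109 regions lower and 4 higher. The E-protein genes Tcf4 (2 regions) and Tcf12, which encode partners of MyoD, and Rbm24, an RNA-binding protein, were ranked lower. Myog was joined on the higher side by Mef2a, a MADS-box factor of muscle, at 75.9 and 85.0 in KD, against 50.4 and 68.0 in Ctrl. Eya4, a co-activator of muscle homeobox factors, had a region at 60.0 and 58.9 in KD, against 26.8 and 19.96 in Ctrl, and Msc, a repressor of MyoD, one at 27.5 and 54.1 in KD, against 18.8 and 10.6 in Ctrl. Without KD 2 this list had 8 of 130 lower and 3 higher, a different balance.

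The AP-1 and immediate early list had 0 of 42 regions lower and 2 higher. Ier3, an early response gene, had a region at 68.1 and 58.9 in KD, against 35.9 and 27.4 in Ctrl. Fosb, an AP-1 subunit, had a region at 45.5 and 45.4 in KD, against 21.5 and 12.8 in Ctrl. Without KD 2 this list had 1 of 45 lower and 7 higher, beside 1209 and 1151 of all 31335 regions. For genes of excitation-contraction coupling, 1 of 36 regions ranked lower (Ryr1) and 1 higher (Casq2, calsequestrin, at 28.7 and 33.5 in KD, against 2.95 and 1.64 in Ctrl). Without KD 2 these numbers were 4 of 44 and 1. The extracellular matrix list had 4 of 133 lower (Lama2, Lamc1 and 2 at Sparc) and 3 higher (Col4a2, Smad3 and Tgfbr2), and the IGF list 2 of 53 lower (Igf2bp2 and H19) and 1 higher (Akt1). The housekeeping list had no shift in 24 regions. Among markers of other cells, the fibro-adipogenic list had 1 of 13 lower (Cd55) and 1 higher (Ly6a), the smooth muscle list 0 of 18 lower and 1 higher (Rgs5), the Schwann list 2 of 11 lower (Mbp and Erbb3) and 0 higher, and the endothelial and immune lists no shift in 18 and 3 regions.

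Width was compared as the bases that a library covered in each shared region, on a log2 scale centred on the library. limma called 0 regions (smallest adjusted p 0.690), and 415 regions were narrower and 621 wider in KD at an unadjusted p below 0.05. Both KD widths lay below both control widths in 12.3% of regions and above them in 15.5%. By the descriptive rule, with groups apart and a log2 difference of at least 0.5, 1043 regions (3.99%) were narrower and 1211 (4.64%) wider in KD. Without the centring the split was 1096 and 531. Only 119 regions were both narrower and ranked lower, and 150 both wider and ranked higher.

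Per gene, the covered bases in the gene body and 5 kb around it were taken as ppm of all bases a library covered. limma called 0 of 10269 genes (smallest adjusted p 1.00), with 158 lower and 79 higher in KD at an unadjusted p below 0.05. Both KD values lay below both control values in 16% of genes and above them in 9.95%. By the descriptive rule 185 genes (1.8%) had fewer covered bases in KD and 57 (0.555%) had more. The split was 230 and 30 without scaling, and 186 and 102 with lists of equal length. Without KD 1 it was 976 and 102, and without KD 2 it was 80 and 343, so the direction depended on which KD library was used. Without Ctrl 1 it was 338 and 170, and without Ctrl 2 it was 442 and 150.

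Fst, follistatin, which binds and blocks myostatin and activin, had 648 and 451 covered bases in KD, against 1580 and 1799 in Ctrl. In ppm this was 11.3 and 12.0 in KD, against 33.4 and 33.8 in Ctrl, a log2(ppm + 5) difference of −1.21 ± 0.17 (SE; limma adjusted p = 1.00). Its unadjusted p was the smallest of the fit, and both KD values lay below both control values. Of 6 regions assigned to Fst, 2 were control-only, each within 1 kb of a gene end, while the strongest one ranked at 71.2 and 72.2 in KD, against 73.7 and 80.9 in Ctrl. The 4 genes with the largest differences, Irx5, Trank1, Arl3 and Fsd1l, had 0 covered bases in KD 2, so their values rested on that library. Irx5, a homeobox gene, had 1717 and 0 bp in KD, against 2242 and 1769 bp in Ctrl. The others with fewer bases, Tet1, Ddx10, Agap2, Slc30a2 and Angpt4, rested mostly on KD 2 as well. Without KD 2 their log2 differences were −0.53 for Tet1, −0.20 for Ddx10, −0.63 for Agap2, −0.45 for Slc30a2 and −0.35 for Angpt4, against −1.25, −1.24, −1.15, −1.13 and −1.12 with all libraries. Agap2 had −0.74 without Ctrl 1. Fst had −1.18 without KD 1 and −1.25 without KD 2, and without either control library it was under the minimum of 1000 covered bases and was not tested.

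On the other side, Scube1, a secreted and membrane-bound EGF-like protein, had 3294 and 1463 covered bases in KD, against 444 and 787 in Ctrl (log2 difference 1.63 ± 0.24, SE; limma adjusted p = 1.00). Ebf1, a transcription factor of B cells and adipocytes, had 2966 and 1867 in KD, against 1142 and 1363 in Ctrl. Apobec2, a muscle-expressed member of the AID/APOBEC family, had 1851 and 1623 in KD, against 866 and 1048 in Ctrl. The groups were apart in bases as well as in ppm for these 3 genes, although KD 2 covered the least in all. Sema3d, Piwil4, Pcdh1, Pcdh19, Ccdc3, Defb47 and Nos1 completed the 10, with log2 differences between 0.84 and 1.38. The value of Sema3d depended on the control library, at 2.27 without Ctrl 2 and 0.49 without Ctrl 1, and in bases KD 2 (1227) lay below Ctrl 2 (1368). Pcdh1 had 0.47 without Ctrl 2 and 1.39 without Ctrl 1.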

How the data were processed

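H3K27ac was profiled by ChIPmentation in 2 knockdown and 2 control libraries. Per the submitters' processing notes, Bowtie2 2.3.2, SAMtools 1.3, Picard 2.9.2, bedtools 2.26.0 and MACS2 2.1.1 were used; no option of these tools was given in the sources used. The deposited lists give for each peak a fold enrichment (a ratio over background), a −log10 p, a −log10 q and a score, each made by the authors' peak caller with 1 list per library. Read depth is unknown, and input libraries were not analysed. Peaks on chromosomes 1 to 19 and X were joined where they shared or touched bases. Regions were assigned to the overlapping or nearest of 21632 RefSeq genes (GRCm38.p6, protein-coding or in the gene lists) within 50 kb. Ranks, log2 widths and log2(ppm + 5) covered bases per gene (mean of at least 1000 bases) were compared with limma 3.58.1 in R 4.3.3 (trend and robust settings for ranks, default settings for widths and genes), with Benjamini-Hochberg adjustment and a threshold of 0.05. Library values were compared with two-sided exact permutation tests. All differences are knockdown minus control. The scripts were tested on simulated data.

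The members and gene lists were chosen with earlier results of these data known. All 290 genes of 15 lists were matched. Named regions and genes are the 10 largest differences in each direction with groups apart, the 10 widest, the top 5 by rank, genes with 2 or more group-only regions, and list members that pass the shift rule; other picks are stated as such. Alternatives covered thresholds, merging, ranking, scaling, pseudocount, a replicate block and leaving out each library. Equal replicate numbers are not said to mark a shared batch, so the fits have no block. Some of the named regions and genes are not reported here.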

Additional observations from a re-analysis of the deposited data

Results flagged for a closer look

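Peaks outside chromosomes 1 to 19 and X were not used in any comparison. They numbered 74 in KD 1 and 30 in KD 2, against 52 in Ctrl 1 and 50 in Ctrl 2. On chromosome Y there were 38 and 16 peaks in the KD libraries, against 29 and 24 in the control libraries, and on unplaced sequences 36 and 14, against 23 and 26. KD 1 was highest and KD 2 lowest, as for the peaks on the other chromosomes. Groups of 2 are too small for a test of single outlying libraries.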

How the results depend on the processing

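With a replicate block, limma called 8 genes lower and 2 higher in KD and 20 regions narrower and 72 wider, with 0 calls by rank; the numbers do not pair the libraries by design, and deviations of same-numbered libraries correlated at 0.128 (rank), −0.0165 (width) and 0.031 (genes). With trend and robust settings also for widths, an alternative chosen after seeing the data, 1 region was narrower and 5 wider. With 1 library left out, gene calls ran from 0 to 128 lower (128 without KD 1, 5 without Ctrl 1, 2 without Ctrl 2) and 0 to 5 higher (5 without Ctrl 2), width calls from 0 to 8 narrower (3 without Ctrl 1, 8 without Ctrl 2) and 0 to 71 wider (43 without Ctrl 1, 71 without Ctrl 2), and rank calls stayed at 0. Knockdown-only regions numbered 274 and control-only 387 at a −log10 q of at least 5, 259 and 495 with a merge gap of 1000 bp, 712 and 755 with lists of equal length, and 955 to 10104 and 969 to 8654 with 1 library left out. The KD minus Ctrl difference in peaks was −2631.5, 228 at a fold of at least 5, and −9668.5 to 4405.5 with 1 library left out; covered length was −2.73 Mb, with −12.7 to 7.23. Median width differed by 13 bp, by −36 at a −log10 q of at least 5, by −106 at a fold of at least 5, and by −19 to 45 with 1 library left out; the gene-end share by 1.29 points, −0.277 at a fold of at least 5, and −2.50 to 4.79. Gene shifts were 72 lower and 17 higher with a pseudocount of 20, 448 and 176 without the filter, 230 and 30 without scaling, and 186 and 102 with equal lists; with 1 library left out they ran from 80 to 976 and 102 to 343. Rank shifts were 707 lower and 383 higher with ranks over all peaks, and 1162 to 1910 and 1151 to 1778 with 1 library left out. Width shifts were 1096 narrower and 531 wider without centring, and 1728 to 3747 and 2477 to 3355. Of 392 recomputed values of 38 named regions and genes, 1 reversed, with the merge gap of 1000 bp (Gm51579, −1.86), and 19 passed the threshold (lowest adjusted p 3.88e-05). The cause was not tested. The unknown depth, the 2 libraries a group and the short list of KD 2 limit what could be detected.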

Other observations

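Regions of the same gene did not always move together. Akap13, an A-kinase anchoring protein and exchange factor for RhoA, had 3 of 22 shared regions ranked higher in KD by the shift rule and 2 knockdown-only regions beside 1 control-only region, while its covered bases differed by −0.05 on the log2 scale. Zfhx3, a homeobox factor, had 3 of 11 ranked higher and Ttc7b 3 of 20, with 1 ranked lower at Ttc7b. Kcnma1, a calcium-activated potassium channel, had 3 of 6 ranked lower, Pakap 3 of 23, and Cdkal1 3 of 16 with 1 ranked higher. Beside these counts, 2.58% of all shared regions ranked higher and 2.62% lower. These genes were picked for the highest counts after the counts were seen, and all have limma adjusted p = 1.00 for covered bases.

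Chromosome X held 1.62% and 1.301% of the covered bases in the KD libraries, against 1.48% and 1.57% in the control libraries, with the control values inside the range of the KD values.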
